A study of Mus musculus with 4 samples.

Results

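The activator protein 1 (AP-1) genes and their ATF and MAF relatives were followed in regulatory T (Treg) cells of fat and spleen. The 10 genes, chosen by name from 23284 measured symbols, were Fos, Fosb, Fosl1, Fosl2, Jun, Junb, Jund, Atf3, Batf3 and Maff. These genes and the gene lists below were chosen with earlier results of these data known, so their shares beside all genes are descriptions. All 10 passed the expression filter of the tissue test, which left 16488 genes, but 2 of them, Fosl1 and Batf3, passed through the fat libraries alone. The same holds for some genes of the lists below, for which the filter itself favoured a higher value in fat. RNA sequencing was done on Treg cells of epididymal white adipose tissue (eWAT) and of spleen from C57BL/6 mice 12 to 13 months old. The mice were either wild type (WT) or PPARg-2KR, a line in which lysines of the nuclear receptor PPARG are replaced by arginine. PPARG is the lipid-activated transcription factor that marks the Treg cells of visceral fat. There was 1 library for each of the 4 combinations, so 2KR eWAT and WT eWAT differ in genotype, and spleen Treg cells of the same genotypes served as controls. The sources used here do not say whether animals were pooled for a library.

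AP-1 is a dimer of leucine zipper (bZIP) proteins, in which a FOS protein pairs with a JUN protein, or JUN proteins pair with each other. The dimer binds the sequence TGACTCA, and dimers with ATF or CREB proteins favour TGACGTCA. Several of these genes are immediate early genes, which are transcribed within minutes of a T-cell receptor, growth factor or stress signal through MAP kinases and without new protein synthesis. They are also known to be switched on when tissues are cut up and digested to release cells. In T cells AP-1 binds DNA together with NFAT, and BATF and JUN proteins bind with IRF4 in the Treg cells of tissues.

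The promoters of 6 members are shown because the genes differ in how they moved between libraries. Each is the 250 bases before the RefSeq transcript start in GRCm38.p6, read 5′ to 3′ on the gene's strand. Capitals mark matches to the core of the ATF and CREB site (TGACG, or CGTCA on the other strand), to the 10-base NF-kappaB consensus, and to the TATA box (TATAAA). Fos lies at chr12:85473640-85473889 on the plus strand, Fosb at chr7:19310046-19310295 on the minus strand and Fosl2 at chr5:32136222-32136471 on the plus strand. Junb lies at chr8:84978749-84978998, Atf3 at chr1:191183334-191183583 and Jun at chr4:95052223-95052472, all on the minus strand.
Fos: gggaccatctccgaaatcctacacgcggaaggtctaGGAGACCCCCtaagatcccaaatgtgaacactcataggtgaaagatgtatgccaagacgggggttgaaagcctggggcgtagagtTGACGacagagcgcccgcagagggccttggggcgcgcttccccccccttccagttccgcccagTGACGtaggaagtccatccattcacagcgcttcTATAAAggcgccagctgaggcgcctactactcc
Fosb: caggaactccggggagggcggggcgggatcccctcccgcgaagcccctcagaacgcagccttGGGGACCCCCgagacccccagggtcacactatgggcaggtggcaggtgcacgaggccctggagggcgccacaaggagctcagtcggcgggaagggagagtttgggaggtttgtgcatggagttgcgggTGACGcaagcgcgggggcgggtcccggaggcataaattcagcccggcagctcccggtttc
Fosl2: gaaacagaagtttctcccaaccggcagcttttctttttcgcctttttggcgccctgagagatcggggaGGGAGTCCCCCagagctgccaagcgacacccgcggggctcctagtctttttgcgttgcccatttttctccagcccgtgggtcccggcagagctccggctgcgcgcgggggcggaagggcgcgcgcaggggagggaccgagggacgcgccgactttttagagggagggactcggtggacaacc
Junb: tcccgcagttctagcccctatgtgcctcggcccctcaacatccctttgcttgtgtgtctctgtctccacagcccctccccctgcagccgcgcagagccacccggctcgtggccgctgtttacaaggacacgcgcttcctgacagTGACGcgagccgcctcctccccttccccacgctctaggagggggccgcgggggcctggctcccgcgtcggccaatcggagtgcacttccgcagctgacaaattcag
Atf3: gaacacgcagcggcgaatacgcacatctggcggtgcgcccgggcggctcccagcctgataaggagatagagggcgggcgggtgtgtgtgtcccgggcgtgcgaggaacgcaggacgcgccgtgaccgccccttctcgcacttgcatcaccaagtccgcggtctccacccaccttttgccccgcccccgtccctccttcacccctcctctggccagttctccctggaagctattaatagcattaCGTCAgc
Jun: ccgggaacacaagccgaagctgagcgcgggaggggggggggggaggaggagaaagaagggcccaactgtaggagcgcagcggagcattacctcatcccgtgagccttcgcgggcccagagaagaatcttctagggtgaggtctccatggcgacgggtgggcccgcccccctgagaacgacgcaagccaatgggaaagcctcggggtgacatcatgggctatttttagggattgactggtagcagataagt
RefSeq windows were found for 9 of the 10 members, with 3 start sites for Maff. The background was 32851 mouse windows of that length, with 1 chromosome left out. Its shares count windows, while members are counted as genes, which hold 11 windows. The member windows had 47.6% (Jund) to 76% (Batf3) G and C, against a median of 52.4%, and no share was adjusted for that. TGACG stood in the windows of 5 of these 9 genes (Fos, Fosb, Junb, Atf3 and Maff), against 17.8% of windows. The NF-kappaB consensus stood in 4 of 9 (Fos, Fosb, Fosl2 and Maff), against 7.25% of windows. TATAAA was found in Fos alone among the 9, and in 12.4% of windows. The full site TGACGTCA, which contains TGACG, was in 1 of the 9, the second start of Maff, and in 1.55% of windows. TGACTCA was in none of the 9 and in 4.46% of windows. The serum response element (CArG box), with a share of 1.47% among all windows, was likewise in none of the 9. The PPAR response element, a direct repeat of AGGTCA with a single spacer base, was in none of the 9 and in 0.0335% of windows. The windows of Jun, Jund and Batf3 held none of the motifs searched. All searches covered both strands of the 250 bases only, so sites farther upstream or past the start were not searched. A match or its absence is a description of the letters in these windows.

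In the mm9 build of the deposited files each member is listed with 1 transcript, and the coordinates of the genes span the exons and any introns. The FOS genes are on separate chromosomes, with Fos at chr12:86814851-86818219, Fosb at chr7:19888045-19895394, Fosl1 at chr19:5447698-5455938 and Fosl2 at chr5:32438845-32460212. Jun is at chr4:94715727-94718913, and Junb (chr8:87500808-87502647) and Jund (chr8:73221638-73224515) share a chromosome. Atf3 (chr1:192994176-193007212) and Batf3 (chr1:192922293-192932822) are neighbours, and Maff is at chr15:79178108-79189506.

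The libraries held 8315569 to 15993889 reads assigned to genes. The Treg label was checked first. Foxp3, which encodes the defining Treg factor, stood at 1408 and 1298 CPM, the reads of a gene scaled to library size, in the WT and 2KR spleens, and at 1160 and 801 CPM in the matching fat libraries. Pparg stood at 5.73, 2.89, 129.5 and 63.9 CPM in that order; the 2KR change alters codons of Pparg and its RNA level does not check the label. Markers of other cells were also present in the fat libraries. Of 12 macrophage and monocyte markers tested, 12 were higher in eWAT, against 33.7% of all tested genes. The markers' summed level was 139 and 96.6 CPM in the spleens against 1439 and 1811 in WT and 2KR fat. All 10 fibroblast and mesothelium markers were higher in eWAT, with sums of 7.91 and 4.33 CPM against 567 and 254. Several of them passed the expression filter through fat alone, such as Lum (0 reads in each spleen) and Pdgfra (8 and 4 in the WT and 2KR spleens). For these the filter favoured a higher value in fat. Of 3 adipocyte markers tested, Lep and Cidec were higher in fat (log2 3.06 and 3.56) and Lipe lower (-0.73). Cidec likewise passed the filter through fat alone. The 7 adipocyte markers summed to 28.3 to 42.2 CPM over the 4 libraries, mostly Lipe in spleen; without it the sums were 2.83 and 1.44 CPM in the WT and 2KR spleens and 13.1 and 20.03 CPM in WT and 2KR fat. Adipoq was at 0 in WT eWAT. In bulk libraries such as these, fewer cells of a type and less RNA per cell cannot be told apart. The part of these other cells in the results that follow was not tested.

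The FOS proteins cannot pair with themselves and need a JUN partner. Fos, the founding immediate early member, had 390.4 CPM in the WT spleen, 369 in the 2KR spleen, 1326 in WT fat and 565 in 2KR fat. Both fat libraries lay above both spleen libraries, and WT eWAT stood far above the other 3. Across 2 eWAT against 2 spleen libraries Fos was 2.49-fold higher in fat (log2 fold change 1.32, SE 0.33, adjusted p = 0.00475, edgeR's quasi-likelihood test with Benjamini-Hochberg adjustment). Here and below the spread within a tissue includes the difference between genotypes, and nothing in the labels says that the libraries are separate cultures or animals of one group.

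Fosb, whose protein and its short splice form ΔFOSB build up under repeated stimulation, had 4.04 and 4.52 CPM in the WT and 2KR spleens, against 488 in WT fat and 137 in 2KR fat. Fosl2, which encodes FRA2, a FOS relative induced more slowly, had 6.06, 4.52, 480.1 and 331 CPM in the same order. In both genes the spleen libraries were near the bottom of the range and the fat libraries were apart from them by more than an order of magnitude. By edgeR with Benjamini-Hochberg adjustment, Fosb was 72.7-fold higher in fat (log2 6.18, SE 0.50, adjusted p = 6.04e-07) and Fosl2 77.1-fold higher (log2 6.27, SE 0.30, adjusted p = 5.18e-09). Fosl1, which encodes FRA1, was scarce, with 5 and 3 reads in the WT and 2KR spleens, against 36 and 16 reads in the WT and 2KR fat libraries. It was 8.26-fold higher in fat (log2 3.05, SE 0.83, edgeR Benjamini-Hochberg adjusted p = 0.00732), without an overlap of the groups. Its counts are uncertain. In the mm9 build its locus shares 2776 bases with the gene Ccdc85b, and the WT eWAT count was 0.242 of the reads that the authors' FPKM implies.

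**Figure D1:**
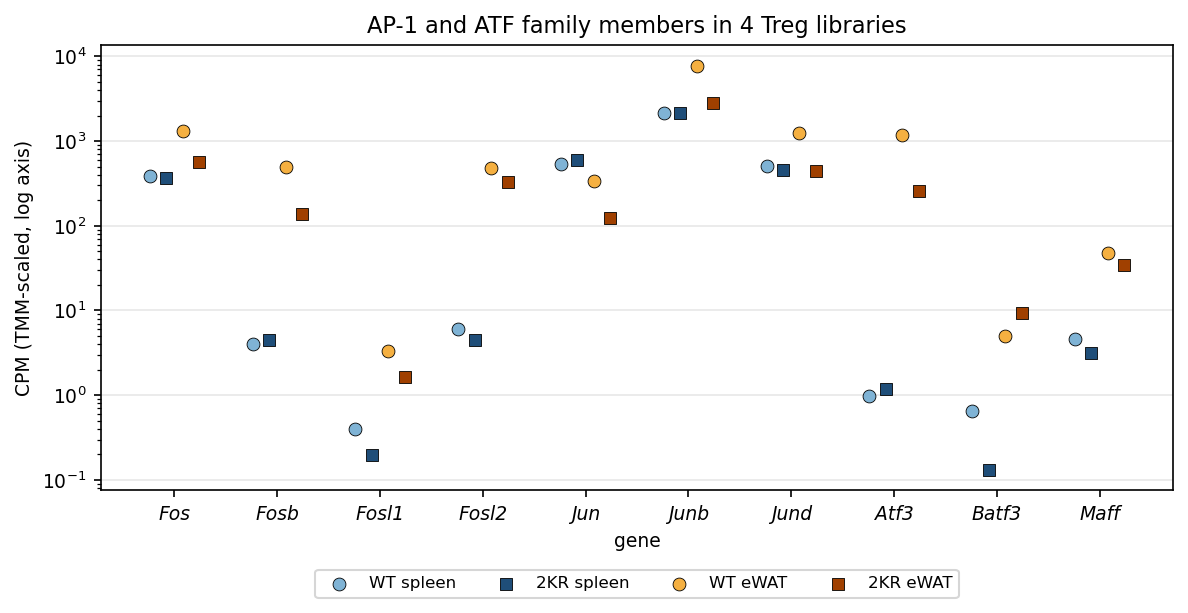
TMM-scaled CPM of each of the 10 genes (log scale on the vertical axis) in the 4 libraries, 1 point for each library. Fosb, Fosl2 and Atf3 stand apart by tissue, while Jun alone is lower in both fat libraries than in both spleen libraries.

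JUN proteins supply the other side of the dimer. Jun, the strongest activator among them, had 542 and 593 CPM in the WT and 2KR spleens and 339 and 124 CPM in WT and 2KR fat. Both fat libraries lay below both spleen libraries, and Jun was the 1 member that fell in fat. It was 2.44-fold lower there (log2 fold change -1.29, SE 0.35, adjusted p = 0.00692 by edgeR with Benjamini-Hochberg adjustment). Junb, whose protein is a weaker activator that can oppose JUN and is needed by effector Treg cells, had 2119.9 and 2146 CPM in the WT and 2KR spleens, and 7757 and 2846 CPM in WT and 2KR fat. The 2 spleen libraries were nearly equal, and 2KR eWAT lay much nearer to them than to WT eWAT. Junb was 2.49-fold higher in fat (log2 1.32, SE 0.41, edgeR Benjamini-Hochberg adjusted p = 0.0151).

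Jund, the member that most cells express without stimulation, had 506 and 450.3 CPM in the WT and 2KR spleens, and 1252 and 439 CPM in the WT and 2KR fat libraries. The groups overlapped, because 2KR eWAT was below both spleen libraries. Its log2 fold change of 0.83 (SE 0.36) missed the threshold with an adjusted p of 0.0656 by edgeR with Benjamini-Hochberg adjustment. Without the WT eWAT library the Jund log2 fold change turned to -0.21, and without 2KR eWAT it was 1.32.

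Atf3 encodes a stress-induced bZIP factor that often represses inflammatory genes. It had 12 and 18 reads in the WT and 2KR spleens (0.969 and 1.18 CPM), but 12717 reads in WT fat (1174 CPM) and 2472 in 2KR fat (257 CPM). Its fold of 656 was the widest of the 10 members (log2 9.36, SE 0.69, adjusted p = 2.55e-07, edgeR with Benjamini-Hochberg adjustment). Maff, a small MAF protein that has no activation domain of its own, had 4.60 and 3.15 CPM in the spleens of WT and 2KR mice, and 47.9 and 34.8 CPM in their fat. It was 10.7-fold higher in fat (log2 3.43, SE 0.30, edgeR Benjamini-Hochberg adjusted p = 1.3e-06), and the groups did not overlap.

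Batf3 encodes the bZIP factor required for type 1 conventional dendritic cells (cDC1). It had 8 and 2 reads in the spleens of WT and 2KR mice, against 54 reads (4.98 CPM) in WT fat and 90 (9.34 CPM) in 2KR fat. It was 18.7-fold higher in fat (log2 4.23, SE 0.77, edgeR Benjamini-Hochberg adjusted p = 0.00071), and it was the only member with its highest value in 2KR eWAT. Of 7 cDC1 markers tested, 5 were higher and 1, Itgae, which Treg cells also express, was lower in fat; their sum was 312 and 233 CPM in the WT and 2KR spleens and 142 and 194 CPM in WT and 2KR fat. Itgae made up most of the spleen sums, at 208 and 161 CPM. No cDC1 marker was at 0 in any of the 4 libraries, and the part of these cells in the Batf3 counts was not tested. Atf3 and Batf3 are neighbours on chromosome 1, with 61.4 kb between them in mm9, yet their values in fat ran in opposite directions between the genotypes.

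In all, 8 of 10 members passed as higher in fat, against a background of 33.7% of tested genes, and 1 of 10 as lower, against 23.2%. Both fat libraries were above both spleen libraries for 8 of 10 members (44.2% of tested genes) and below them for 1 (37.6%). The median log2 fold change was 3.24 over the members and 0.11 over all genes tested. Fosl1 and Batf3 are in these counts and in the median. They passed the expression filter through the fat libraries alone, so the filter itself favoured a value higher in fat for them. The calls moved with the tool, and the sizes with the libraries. With DESeq2, Fos (adjusted p = 0.0907), Junb (0.144) and Jun (0.0793) missed the threshold. When 1 library is left out, its tissue keeps 1 library, and the spread comes from the other tissue alone. For those fits only the sizes of the members are given here. Without 2KR spleen the log2 fold changes were 1.23 for Fos, 2.55 for Fosl1 and 1.28 for Junb. Without WT spleen they were 1.32 for Fos and 1.27 for Junb, close to those with all 4 libraries. Without WT eWAT they were 0.48 for Fos, 0.32 for Junb and 2.36 for Fosl1, and Jun went to -2.29. Fosb, Fosl2, Atf3, Batf3 and Maff passed under DESeq2. They stayed above 0 with each library left out, but not with equal sizes. Atf3 had a log2 fold change of 7.78 without WT eWAT and 9.995 without 2KR eWAT, and Fosb had 4.89 without WT eWAT. Batf3 ranged from 3.39 without 2KR spleen to 5.61 without WT spleen, and had 3.64 without 2KR eWAT.

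Within each genotype there is 1 library per tissue, so the following ratios carry a 95% interval for counting error only and no test. No count of members is given here, because 4 of them (Fosb, Atf3, Batf3 and Maff) reached 5 CPM in fat only. Batf3 had a log2 ratio of 2.66 in WT and 4.998 in 2KR. Fos went from a log2 ratio of 1.76 in WT to 0.61 in 2KR, Junb from 1.87 to 0.41 and Jund from 1.31 to -0.03 (95% interval -0.09 to 0.02). Jun, below 0 in both genotypes, went from -0.68 to -2.25. Fosl2, at 6.27 and 6.14, and Maff, at 3.33 and 3.40, had nearly the same tissue ratio in both genotypes. Atf3 had 10.01 and 7.57, and Fosb 6.86 and 4.87.

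**Figure D2:**
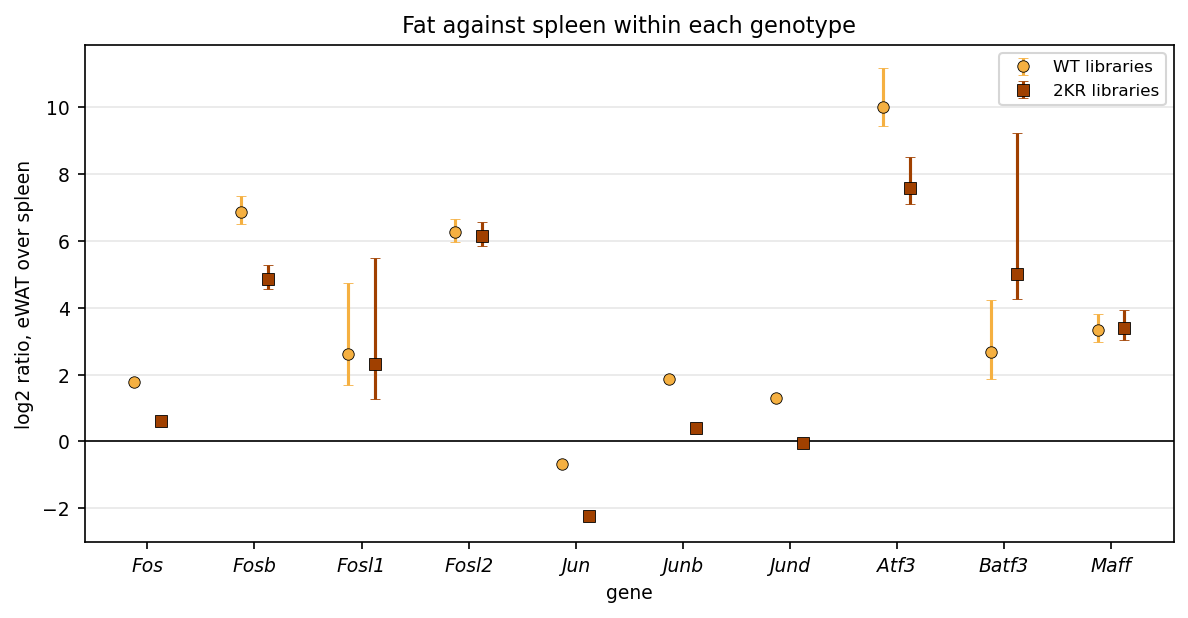
Log2 ratio of eWAT over spleen within WT (circles) and within 2KR (squares) for each of the 10 genes, with 95% intervals for counting error. Fosl2 and Maff have like ratios in both genotypes, and Jund is at 1.31 in WT and -0.03 in 2KR.

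Levels of different genes were compared on the authors' FPKM, which are scaled for gene length. Junb was first among the members in all 4 libraries, at 1170.5 and 1211 FPKM in the WT and 2KR spleens and 4495 and 2013 FPKM in WT and 2KR fat. It ranked 45, 38, 8 and 19 among all genes in that order. In the spleens Fos, Jund and Jun followed within a narrow range of 155 to 187 FPKM, and their order differed between the 2 spleens. The other 6 members were all under 2.2 FPKM there. In WT eWAT the order after Junb was Fos (668 FPKM), Atf3 (625), Jund (443), Fosb (127), Jun (107), Fosl2 (79.7), Maff (27.2), and then Batf3 (8.05) and Fosl1 (8.03). Neighbours such as Fos and Atf3, or Batf3 and Fosl1, lie too close to be ranked with 1 library. In 2KR eWAT Jund (190.0 FPKM) stood above Atf3 (167), and Fosl2 (67.1) above Jun (48.1) and Fosb (43.4).

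**Figure D3:**
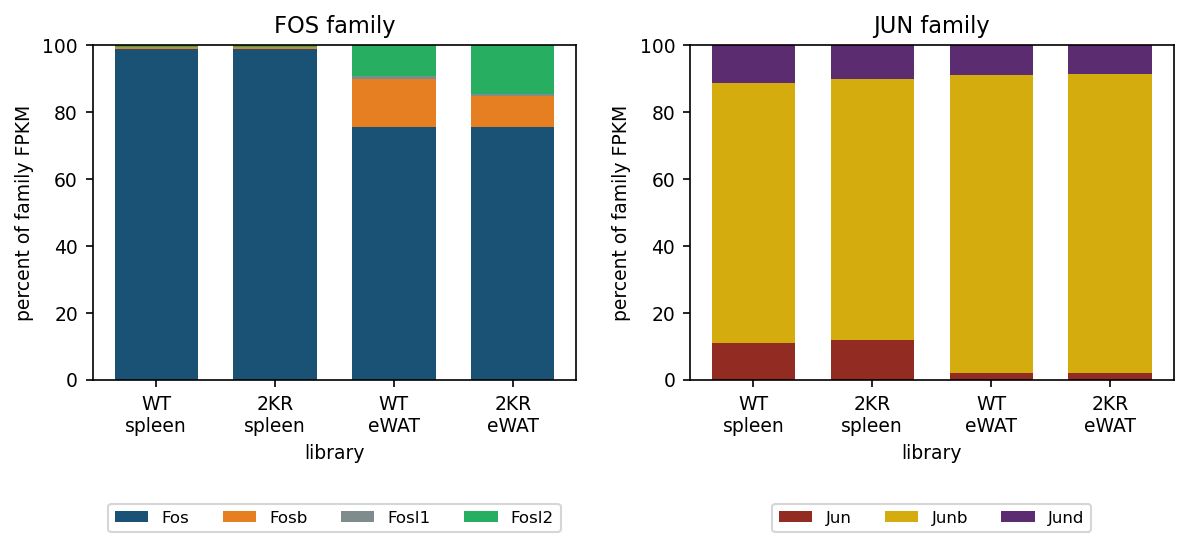
Percent of summed FPKM of the FOS family (left) and JUN family (right) given by each gene in the 4 libraries. Fos gives 98.9% and 99.0% in spleen and 75.7% and 75.5% in fat, and Junb is above 77% of the JUN family in all 4 libraries.

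The makeup of each family differed by tissue more than by genotype. Fos gave 98.9% and 99.0% of FOS family FPKM in the WT and 2KR spleens, and 75.7% and 75.5% in WT and 2KR fat. The rest in fat was mainly Fosb, with 14.4% in WT and 9.46% in 2KR, and Fosl2, with 9.03% and 14.6%. Fosb and Fosl2 thus exchanged places between the genotypes while the share of Fos was nearly the same. In the JUN family Junb gave 77.8% and 78.2% in the WT and 2KR spleens and 89.1% and 89.4% in WT and 2KR fat. The share of Jun was 10.9% and 11.8% in the spleens and 2.13% and 2.14% in fat. Summed JUN family FPKM was 7.96 and 8.49 times that of the FOS family in the WT and 2KR spleens, and 5.72 and 4.91 times in WT and 2KR fat. These shares are levels in 1 library each, and no test was made of them.

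The second comparison asked whether the PPARG lysine change goes with other AP-1 levels within fat. In eWAT, 6 of the 9 members at 5 CPM or more in a library (all but Fosl1) had at least 2-fold less RNA in 2KR than in WT: Fos, Fosb, Jun, Junb, Jund and Atf3. The background was 2.36% of 12307 genes. None of the 9 was at least 2-fold higher (5.31% of genes). The median log2 ratio was -1.44 over these members and -0.08 over the 12307 genes. Among genes averaging 20 CPM or more, the same 6 stood among 8 members, with a background of 1.99%, and 8 of 8 were below 0, as were 70.1% of all such genes. As a share of all gene reads, the 10 members together took 0.334% and 0.341% in the WT and 2KR spleens, against 1.25% in WT fat and 0.550% in 2KR fat.

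Atf3 differed most, with a log2 ratio of 2KR over WT in eWAT of -2.19 (95% counting interval -2.26 to -2.13), from 1174 to 257 CPM. Fosb followed at -1.83 (-1.92 to -1.75). The 3 JUN genes lay close together, with Jun at -1.44 (-1.54 to -1.35), Junb at -1.45 (-1.47 to -1.43) and Jund at -1.51 (-1.56 to -1.46). Fos was at -1.23 (-1.28 to -1.19). Smaller ratios were seen for Fosl2, at -0.53 (-0.60 to -0.47), and Maff, at -0.46 (-0.67 to -0.26). Fosl1, on 36 and 16 reads, was at -0.93 (-1.95 to -0.11), and Batf3 was the exception in direction at 0.88 (0.40 to 1.42). These intervals say how well 2 libraries were counted and nothing about the spread between mice.

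**Figure D4:**
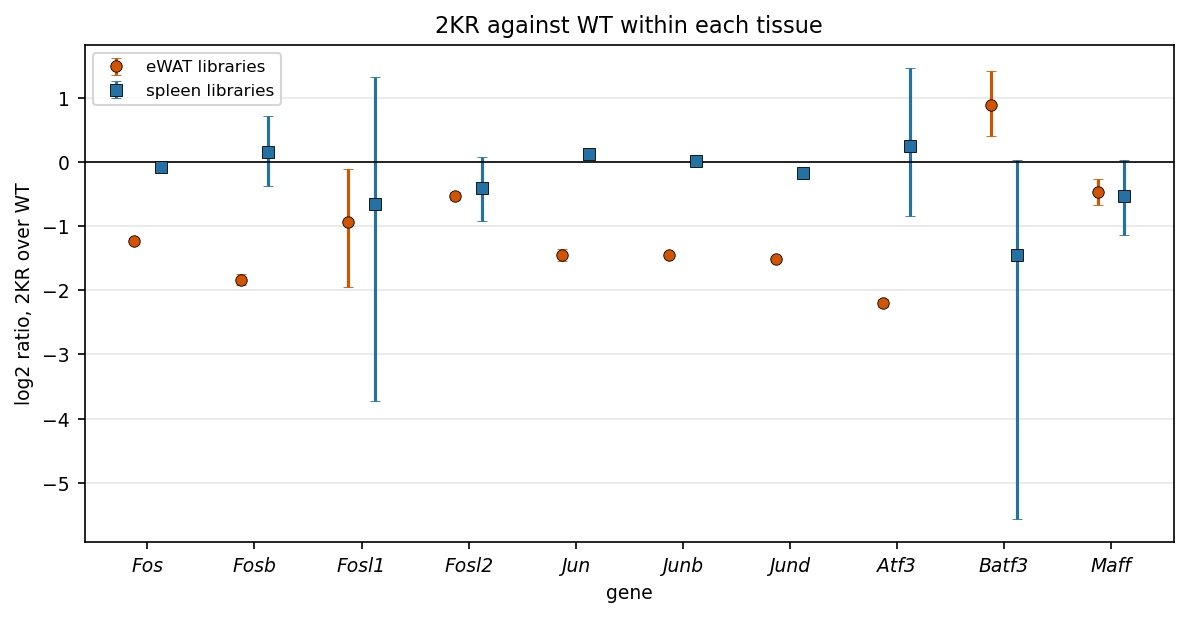
Log2 ratio of 2KR over WT for each of the 10 genes in eWAT and in spleen, with 95% intervals for counting error. In eWAT 9 of 10 sit between -2.19 and -0.46 and Batf3 at 0.88, while in spleen Fos, Jun, Junb and Jund sit between -0.17 and 0.13.

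Several other values moved with genotype in fat. The summed fibroblast and mesothelium markers were 567 CPM in WT eWAT and 254 in 2KR eWAT, with a median log2 ratio of -1.02. The macrophage and monocyte markers (1439 and 1811 CPM in WT and 2KR fat), B cell markers (92.8 and 160.1 CPM) and mast cell markers (14.4 and 83.1 CPM) had higher sums in 2KR. The other dendritic cell markers summed to 802 and 1334 CPM, of which Ccr7, which T cells also express, gave 316 and 679. Without Ccr7 their sums were 485 and 656 CPM, with Ccl22 (log2 ratio -0.36) and Fscn1 (-0.84) lower in 2KR. The endothelial markers summed to 192 and 314 CPM. The 10 Treg and T cell markers, 9 of them in the files, summed to 8072 and 6160 CPM. Batf3 was at 0.88. The median log2 ratio was 0.90 for the cDC1 markers, 0.86 for the B cell markers and 0.72 for the other dendritic cell markers. The cDC1 markers at 5 CPM or more in a library ran from -0.04 (Xcr1) to 1.87 (Clec9a). The part of these cells in the AP-1 values was not tested. The library scaling factor (trimmed mean of M-values, TMM) of 2KR eWAT, 1.16, stood apart from the 0.934 to 0.968 of the other 3, and scaling by total reads in its place moved the median gene in eWAT by 0.26. On that scale Fos was at -0.97, Junb at -1.19 and Atf3 at -1.93.

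In spleen the ratios of the 4 abundant members were small. Fos was at -0.08 (95% counting interval -0.14 to -0.02), Jun at 0.13 (0.08 to 0.17), Junb at 0.02 (-0.01 to 0.04) and Jund at -0.17 (-0.22 to -0.12). These 4 genes had 4834 reads or more in each spleen library, so counting error was small. The intervals were wide for the scarce members, such as Atf3 at 0.25 (-0.85 to 1.47) on 12 and 18 reads and Fosb at 0.16 (-0.38 to 0.72) on 50 and 69 reads. One of the 9 members, Batf3 on 8 and 2 reads, was at least 2-fold lower in 2KR spleen (5.71% of genes), at -1.45 (-5.57 to 0.02), and none was at least 2-fold higher (1.03%). The median was -0.08 over the members and -0.07 over all genes.

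The genotype ratio in eWAT minus that in spleen was -1.15 for Fos, -1.99 for Fosb, -1.57 for Jun, -1.46 for Junb, -1.34 for Jund and -2.44 for Atf3. It was near 0 for Fosl2 (-0.13) and Maff (0.06), and 2.33 for Batf3, where the spleen side rests on 10 reads. A difference of -1 or lower was seen for 6 of 9 members and for 3.02% of genes. Fosb and Atf3, which are among the 6, reached 5 CPM in fat only, so fat alone brought them into the count. The design leaves no degree of freedom to test the difference between tissues.

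The design allows 1 genotype test, of an effect shared by the tissues. None of the 10 members passed it in edgeR (0.0667% of tested genes passed as lower and 0 as higher), and none passed in DESeq2. At an unadjusted p under 0.05, 6 members were lower in edgeR (3.43% of genes) and 2 in DESeq2 (0.493%). The values were below 0 for 10 of 10 members, as for 57.8% of all genes. Atf3 had a log2 fold change of -1.63 (edgeR Benjamini-Hochberg adjusted p = 0.225) and Fosb of -1.09 (adjusted p = 0.543). With scaling by total reads Atf3 passed (adjusted p = 0.0142), as did 0.0667% of genes as lower. With no expression filter Atf3 (0.00443) and Fosb (0.0255) passed, as did 0.188% of genes.

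Other bZIP genes were then set beside the members. Of 31 tested, 13 were higher and 6 lower in fat by edgeR, and 12 did not pass. Over all tested genes, 33.7% were higher and 23.2% lower. The median log2 fold change of these bZIP genes was 0.22. In eWAT 2 of 29 were at least 2-fold lower in 2KR than in WT, against 2.36% of genes. Crem, a cAMP-responsive factor whose ICER forms repress transcription, rose from 67.4 and 58.8 CPM in the WT and 2KR spleens to 1507 and 1096 in WT and 2KR fat (log2 4.37, edgeR Benjamini-Hochberg adjusted p = 9.51e-08). Hlf (log2 3.31) and Nfil3 (1.87) also rose, and Dbp, an output gene of the circadian clock, fell (-1.91). Batf, the IRF4 partner needed by tissue Treg cells, went from 287 and 201 CPM in the WT and 2KR spleens to 139 and 117 in WT and 2KR fat. It fell by 0.93 on the log2 scale (edgeR Benjamini-Hochberg adjusted p = 0.0036). Batf lies 209 kb from Fos in mm9 and Jdp2, another AP-1 repressor, 122 kb from it. Jdp2 rose by 1.56. Irf4 itself rose by 1.25, and Nfatc1, the NFAT partner of AP-1, fell by 0.67; over the 10 NFAT, IRF and related partners, 2 rose, 1 fell and 7 did not pass. The count of those that fell was 0 without WT spleen and 0 without 2KR spleen, and 3 without WT eWAT.

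Genes that act before and after AP-1 in the MAP kinase pathway were counted the same way. Of 27 upstream kinases and SRF-type factors, 5 were higher (33.7% of tested genes) and 4 lower (23.2%) in fat, with a median of -0.09. The 4 widest changes among those that reached 20 CPM were those of Mef2c (log2 3.06), Map3k8 (1.56), which encodes the kinase TPL2, Map2k6 (1.08) and Map2k3 (1.04). None of 26 was at least 2-fold lower in 2KR eWAT (2.36% of genes), and the median ratio there was -0.31. At least 2-fold higher there was 1 of 26, Mef2c at 1.85 (5.31% of genes). Of 14 feedback inhibitors, 9 were higher and 3 lower in fat (median 1.26). They included the phosphatases Dusp8 (6.12), which passed the expression filter through fat alone, Dusp5 (2.68), Dusp10 (2.55) and Dusp4 (1.79). Their median ratio of 2KR over WT in eWAT was -0.39, with 1 of 13 at least 2-fold lower (2.36% of genes) and 1 at least 2-fold higher (5.31%). Leaving out 1 library moved some of these counts by over 1.5 times. Without 2KR spleen the upstream list had 2 higher and 0 lower, and the feedback list 5 higher and 1 lower. Without WT spleen the upstream list had 3 higher and 1 lower, and the feedback list 1 lower. Without WT eWAT the upstream list had 11 lower.

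The other immediate early genes, which respond to the same signals as Fos and Junb, form the next list. Of 35 tested, 22 were higher (33.7% of all tested genes) and 5 lower (23.2%) in fat, with a median log2 fold change of 1.38. Cyr61, a secreted matrix protein made mainly by stromal cells, rose by 5.68, Ier3 by 5.60, the orphan receptor Nr4a2 by 4.39 and Nfkbiz, a nuclear IkB protein, by 3.53. In eWAT 11 of 34 were at least 2-fold lower in 2KR (2.36% of genes), with a median of -0.74 (-0.08 over all genes at 5 CPM). In eWAT 29 of 34 were below 0, as were 70.1% of genes averaging 20 CPM or more, a stricter level than that of the list. Nfkbiz was at -1.18 and Cyr61 at -0.75, while Nr4a2 was higher in 2KR, at 0.47. In spleen the median of the list was 0.03 (-0.07 over all genes at 5 CPM), and 14 of 34 were below 0. The share of all genes below 0 in spleen was not counted. Without WT spleen 14 rose and 3 fell in fat, without 2KR spleen 3 fell, and without WT eWAT 8 fell.

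**Figure D5:**
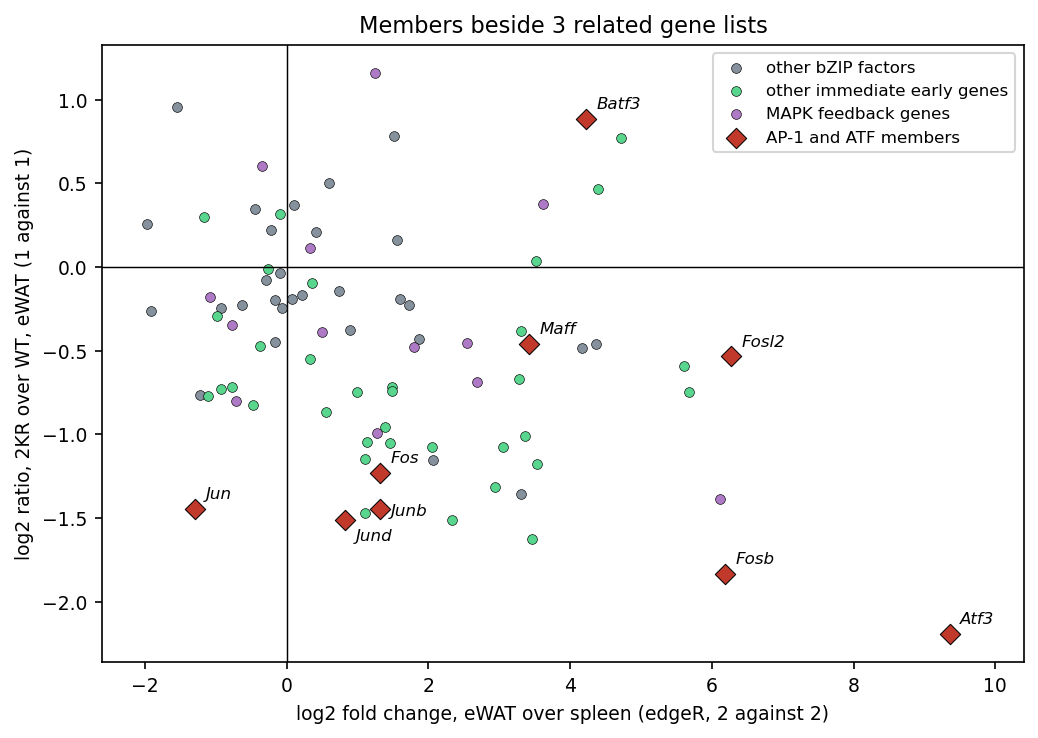
Log2 fold change of eWAT over spleen (horizontal) against the log2 ratio of 2KR over WT in eWAT (vertical), 1 point for each gene. Shown are 9 members (all but Fosl1) and genes of 3 related lists, each tested and at 5 CPM or more in a library. Both axes use the same WT eWAT library, so no relation between them is read from the plot; Atf3 is at 9.36 and -2.19, and Jun is the only member to the left of 0.

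Textbook targets of AP-1 rose in fat in 18 of 23 cases (33.7% of all tested genes) and fell in 1 (23.2%). The median log2 fold change of these targets was 2.54. Several of them passed the expression filter through the fat libraries alone. Examples are Il6, with 7 and 5 reads in the WT and 2KR spleens, and Csf2, with 7 and 4. For such genes the filter favoured a higher value in fat, and they are in the count and the median. Areg, the epidermal growth factor relative by which tissue Treg cells aid repair, rose from 11.8 and 10.8 CPM in the WT and 2KR spleens to 2068 in WT eWAT and 386 in 2KR eWAT (log2 6.77, edgeR Benjamini-Hochberg adjusted p = 2.63e-06). Its genotype ratio in eWAT was -2.42, beside the -2.19 of Atf3. Csf2 rose by 5.47 with a genotype ratio of -1.83. Plaur, the urokinase receptor of myeloid and other cells, rose by 5.64, and the cytokine gene Il6 by 5.93, with genotype ratios of -0.29 and -0.01. In 2KR eWAT 7 of 18 targets at 5 CPM or more were at least 2-fold lower than in WT, against 2.36% of genes. Heat shock genes, which also respond to stress, were counted for contrast. They leaned toward 2KR in spleen, where their median genotype ratio was 0.43 (-0.07 over all genes at 5 CPM) and 3 of 14 were below 0. In eWAT their median was -0.17 (-0.08 over all genes), and 9 of 14 were below 0. With 1 library on each side, these genotype values were not tested. Of 14, 1 was higher (Dnaja1, 0.75) and 3 lower in fat, namely Hspe1 (-1.39), Hspa1b (-0.98) and Hspd1 (-0.78), and none was at least 2-fold lower in 2KR eWAT. That list's counts are small and moved with the setting, from 0 to 3 higher and from 1 to 6 lower.

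Among the members, the most alike pair over the 4 libraries was Fos and Junb, with a Euclidean distance of 0.174 between their centred log2 CPM. Jund was nearest to Junb (0.521), Fosl1 and Maff to each other (0.958), and Fosb and Fosl2 to each other (1.06). Batf3 was nearest to Maff (1.24). Jun (2.11, to Jund) and Atf3 (2.88, to Fosl2) were the farthest from any other member. The 8 genes of all those averaging 20 CPM or more whose values lay nearest to the mean profile of the members were Lztfl1 (distance 0.180), Nr4a3 (0.285), S100a4 (0.347), Ctla2b (0.363), Pde3b (0.390), Rgs2 (0.394), Klf4 (0.418) and Plin2 (0.429). Lztfl1 had 17.1 and 16.3 CPM in the WT and 2KR spleens, 243 in WT eWAT and 104 in 2KR eWAT, and lies near the mean of the 10 profiles. The members themselves are spread widely around that mean. Maff (0.494) and Fosl1 (0.784) lay within 1 of it and Batf3 at 1.73, and the other 7 at 2.02 (Fos) to 5.66 (Atf3). Nr4a3, Rgs2 and Klf4 are also on the immediate early list, and Plin2 encodes a protein that coats lipid droplets. With 4 points for each gene, these distances are descriptions only.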

How the data were processed

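Poly-A RNA of 4 Treg cell libraries was sequenced. Per the deposited readme, the 100 bp TruSeq reads went through bcl2fastq 1.8.4 and then Tophat 2.1.0 on the mm9 build, with 4 mismatches and 10 multiple hits at most. The labels also name mm8. The deposited counts are whole reads for each gene symbol, unscaled; which tool counted them, and whether it used strand, was not given in the sources used here. The deposited FPKM come from the authors' Cufflinks 2.0.2 run.

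Counts were scaled with TMM (edgeR 4.0.16, R 4.3.3). For tissue, edgeR's quasi-likelihood test was run after filterByExpr on 2 libraries against 2, with Benjamini-Hochberg adjustment over 16488 genes and a threshold of 0.05. The shared genotype effect was fitted beside tissue, which left 1 residual degree of freedom. The biological coefficients of variation were 0.221 and 0.234. Ratios of single libraries used a prior count of 2 and exact binomial 95% intervals, which cover counting error only. A count of 3 reads corresponds to 0.197 to 0.311 CPM. DESeq2 1.42.0 and limma 3.58.1 on log2(FPKM + 1) served as alternatives, and the fits were tested on simulated data. Python 3.11.15 was used for other steps.

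The 10 members and the 16 gene lists were chosen with earlier results of these data known. All members are named. From each other list up to 4 genes were named, those with the widest tissue fold change among genes that passed and reached 20 CPM in a library. bZIP genes within 1 Mb of a member and the 8 nearest profiles were also named. Lep, Cidec, Ccr7, Xcr1 and Clec9a were named after their values were seen.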

Additional observations from a re-analysis of the deposited data

Results flagged for a closer look

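The genotype log2 ratio (2KR over WT) had opposite signs in fat and spleen for Fosb, Jun, Junb, Atf3 and Batf3. How many of all genes do so was not counted, so it is not read as a trait of the members. The ratio in eWAT minus that in spleen was -1.99 for Fosb, -1.57 for Jun, -1.46 for Junb, -2.44 for Atf3 and 2.33 for Batf3. The tissue log2 ratio of Jund was above 0 in WT and just below 0 in 2KR, a difference of 1.34. None of these differences was tested, since each side is 1 library against 1. For Jun alone among the 6 did both counting intervals leave out 0. The spleen sides of Fosb, Atf3 and Batf3 rest on 50 and 69, 12 and 18, and 8 and 2 reads in WT and 2KR spleen.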

How the results depend on the processing

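With 1 library for each combination, no mouse-to-mouse spread within a group was measured. With each library left out in turn, in fits where the lone library is assumed to vary like the others, members higher in fat numbered 5 to 9 and genes of all kinds 3403 to 5491 higher and 1909 to 5278 lower. The log2 fold change of Jund then ran from -0.21 (without WT eWAT, the 1 reversed direction among the 10 members) to 1.32. DESeq2 called 6 members higher (21.7% of genes) and 0 lower (20.8%). limma on log2(FPKM + 1) called 8 members higher and 1 lower, and 2750 genes higher (18.3%) and 2979 lower (19.8%). With genotype as a replicate block, since both tissues were taken from each genotype, 8 members were higher and 1 lower, as without it, and 4487 genes were higher and 4007 lower; it changed no member's call. No numbered replicates exist beyond that.

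For the shared genotype effect, 1 member passed as lower with total count scaling (0.0667% of genes) and 2 with no expression filter (0.188%). The median of the members' genotype ratio in eWAT was -1.19 with total count scaling and -1.14 on log2(FPKM + 1). The medians of all genes there were 0.18 and 0.14. Under each of these 1 member, Batf3, was also at least 2-fold higher. In spleen 0 members were at least 2-fold lower on log2(FPKM + 1). The shares of all genes past 2-fold were not counted under these scalings, so these counts of members have no background. The median tissue ratio of these members, 4 of which reached 5 CPM in fat only, in WT was 2.87 with a prior count of 0.5 and 2.06 on log2(FPKM + 1), and in 2KR 3.68 with total count scaling and 3.22 with DESeq2 size factors. The median difference between tissues was -1.11 and -1.08 with total count scaling and log2(FPKM + 1). Total count scaling moved the median gene by 0.26 for genotype in eWAT and 0.28 for tissue in 2KR. Without scaling for length, 3 members in each spleen and 6 in each fat library kept their place in the order of levels. Scarce members (Fosl1, Batf3, Atf3 in spleen) are limited by depth.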
